A study of Danio rerio with 21 samples.

Results

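Cytochrome P450 enzymes of families 1 to 4 are heme proteins that insert oxygen into drugs, pollutants, fatty acids, steroids and other fat-soluble compounds. Most of them sit in the membrane of the endoplasmic reticulum (ER) and take electrons from cytochrome P450 oxidoreductase, and the liver holds a large share of them. In zebrafish, families 1 to 3 include many genes that arose by duplication within fishes and lie side by side on chromosomes. A gene was taken as a member when its zebrafish symbol, in lower case, began with cyp, 1 digit from 1 to 4 and a letter. This gave 54 of the 32520 gene identifiers counted, with 5 genes in family 1, 40 in family 2, 5 in family 3 and 4 in family 4. Families 7, 24, 51 and other P450 genes were not members. All 54 members passed the filter on low counts, a scaled total of at least 10 counts over all libraries.

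The libraries came from livers dissected from zebrafish larvae at 7 days post fertilization (dpf), dissociated with trypsin and made into low-input RNA-seq libraries, with 3 libraries for each of 7 genotypes. The genotypes were xbp1-/-;sec31anju221, atf6-/-;sec31anju221, atf4a-/-;atf4b-/-;sec31anju221, srebf1-/-;sec31anju221, srebf2-/-;sec31anju221, sec31anju221 and WT. The allele sec31anju221 is a gene-trap insertion in an intron of sec31a, which encodes an outer coat protein of the COPII vesicles that carry cargo from the ER to the Golgi, and it lowers rather than abolishes its function. Each of the 5 double mutant genotypes also carried sec31anju221, so sec31anju221 was set against WT and each double mutant against sec31anju221. The second genes, disrupted by CRISPR/Cas9 in the whole fish and not in hepatocytes alone, encode Xbp1, Atf6 and Atf4, which act in the response to ER stress, and the lipid regulators Srebf1 and Srebf2.

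The files carried 9608400 to 23095746 counts per library. Within a genotype the 3 libraries differed little: the variance of low counts was 1.77 to 1.86 times their mean, and that of high counts was 1.86 to 2.24 times their mean. They were therefore counted as 1 sample, so no difference between genotypes had a replicate check, no p-value is given for one, and the ranges over libraries describe the spread of these libraries only. A gene was called higher or lower when its fold change was above 2 and its false discovery rate in edgeR's quasi-likelihood test was below 0.001, a rate that covers counting noise only. With so small a spread, no member called had any overlap between the libraries compared. A lack of overlap, where given, is therefore a description and adds nothing to a call. As a check of the labels, sec31a averaged 2.64 CPM in sec31anju221 and 19.5 CPM in WT (counts per 1000000, CPM, after scaling by the trimmed mean of M values, TMM), xbp1 averaged 0.385 CPM in xbp1-/-;sec31anju221 and 103.8 CPM in sec31anju221, and atf6 averaged 4.39 CPM in atf6-/-;sec31anju221 and 328 CPM in sec31anju221. The gene srebf2 averaged 1.001 CPM in srebf2-/-;sec31anju221 and 4.45 CPM in sec31anju221. The gene srebf1 averaged 0.457 CPM in srebf1-/-;sec31anju221 and 1.58 CPM in sec31anju221, but it was also at 0.407 CPM in srebf2-/-;sec31anju221. In contrast, atf4a averaged 12.6 CPM and atf4b 132 CPM in the libraries labelled atf4a-/-;atf4b-/-;sec31anju221, against 6.41 and 88.4 CPM in sec31anju221. These libraries, whose label also names sec31anju221, are named here the libraries labelled atf4a/b double mutants. For atf4a and atf4b their label was not borne out by gene counts, which do not show whether the remaining transcript is intact. The hepatocyte list of 44 marker genes was expressed in every genotype, and no gene of it was at 0. Exocrine pancreas markers summed to 29.998, 981 and 60.3 CPM in xbp1-/-;sec31anju221, atf6-/-;sec31anju221 and the libraries labelled atf4a/b double mutants, to 817 and 47.8 CPM in srebf1-/-;sec31anju221 and srebf2-/-;sec31anju221, to 113 CPM in sec31anju221 and to 2002 CPM in WT. Intestine markers summed in the same order to 589.7, 62.1, 107, 2937, 587, 3302 and 1685 CPM. Of these markers, ptf1a was at 0 in the libraries labelled atf4a/b double mutants and fabp6 at 0 in srebf2-/-;sec31anju221. The pancreas sum in WT was mostly amy2a, at 1795 CPM, against 69.8 CPM in sec31anju221. Some other pancreas markers had another order. The genes prss59.2 and ela2l were at 39.9 and 60.7 CPM in WT, 201 and 162 CPM in atf6-/-;sec31anju221, and 144 and 182 CPM in srebf1-/-;sec31anju221.

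Summed over their genes, the 4 families together were lower in every mutant genotype than in WT under all 5 scalings tried. These were TMM, relative log expression (RLE) size factors, TMM factors from the genes averaging 10 CPM or more, library totals alone, and a hepatocyte list of marker genes. With TMM, the summed level was 2542, 2494 and 2509 CPM in the 3 sec31anju221 libraries, against 8040.4, 8019 and 7949 CPM in the WT libraries. It was 921 CPM in xbp1-/-;sec31anju221, 1306 CPM in atf6-/-;sec31anju221, 1758 CPM in the libraries labelled atf4a/b double mutants, 3576 CPM in srebf1-/-;sec31anju221 and 4843 CPM in srebf2-/-;sec31anju221. No library of a mutant genotype overlapped the WT range. The order of the mutants depends on the scaling, with TMM factors between 0.484 and 2.09. As a share of all counts with no scaling, the members took 0.192% in xbp1-/-;sec31anju221, 0.272% in atf6-/-;sec31anju221, 0.276% in the libraries labelled atf4a/b double mutants, 0.253% in srebf1-/-;sec31anju221, 0.272% in srebf2-/-;sec31anju221, 0.191% in sec31anju221 and 0.388% in WT. On that measure xbp1-/-;sec31anju221 and sec31anju221 were nearly equal. Scaled to the hepatocyte list, the log2 difference of the 4 families together was -0.62 between sec31anju221 and WT, and between -0.17 and -0.42 in the double mutants against sec31anju221. With TMM, the hepatocyte list summed to 71440.4, 79667, 129326, 337281, 458776, 215830.0 and 720679 CPM in the same order of genotypes. The sums of the list and of the members were divided by the same TMM factors. Their likeness across genotypes is therefore in part set by the scaling, and they were not compared without it. In these whole-liver libraries, fewer hepatocytes and less RNA per hepatocyte cannot be told apart.

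**Figure D1:**
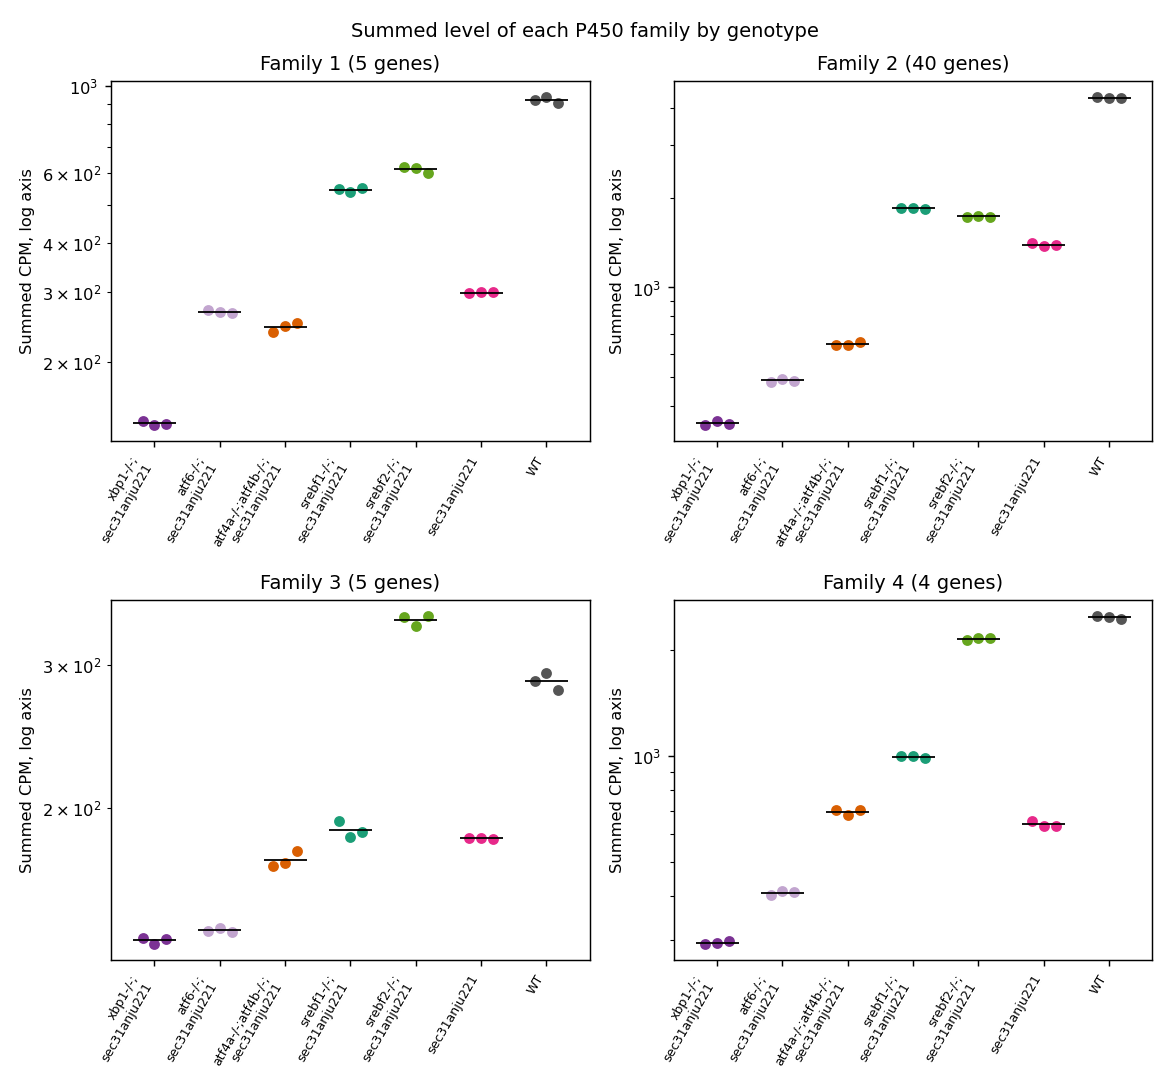
Summed level of each P450 family (log axis, TMM-scaled CPM) in the 21 libraries, by genotype. Points are the 3 libraries of a genotype, counted as 1 sample, and the line is their mean. With this scaling all 4 families were lower in sec31anju221 than in WT. Family 3, with means of 183 CPM in sec31anju221 and 287 CPM in WT, had the smallest difference, and it changed sign with library totals alone and with the hepatocyte list.

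Family by family, the summed levels of families 1, 2 and 4 were lower in sec31anju221 than in WT under all 5 scalings. The log2 difference of the family 3 sum was -0.65 with TMM, 0.0039 with library totals alone and 0.41 with the hepatocyte list. A sum is weighted towards the genes with most counts. With TMM, the median log2 fold change over the genes was 0.014 in family 1 and -0.89 in family 2. It was 0.071 in family 3 and -1.27 in family 4. Over all 54 members the median was -0.84 with TMM and 0.19 with the hepatocyte list. Family 1, which includes cyp1a of the aryl hydrocarbon response, summed to 298, 299 and 300.0 CPM in sec31anju221. The WT libraries had 918, 935 and 904 CPM, so it was 3.07 times lower in sec31anju221. Family 2, the largest family, summed to 1405, 1377 and 1393 CPM in sec31anju221, against 4337, 4308 and 4315 CPM in WT, 3.10 times lower. Family 3, which includes a counterpart of the human drug-metabolizing CYP3A enzymes, summed to 184, 183 and 183 CPM in sec31anju221, against 287, 294 and 279.8 CPM in WT, 1.56 times lower. Family 4, the fatty acid hydroxylases, summed to 655, 635 and 632 CPM in sec31anju221, against 2498, 2482 and 2450.4 CPM in WT, 3.87 times lower. In each family the libraries of the 2 genotypes did not overlap.

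Few differences in family level between the double mutants and sec31anju221 kept their direction under all 5 scalings: family 2 was lower in xbp1-/-;sec31anju221 and atf6-/-;sec31anju221, family 1 higher in srebf1-/-;sec31anju221, and family 4 higher in srebf2-/-;sec31anju221 and in the libraries labelled atf4a/b double mutants. Some of these were near 0 under some scalings. The log2 difference of family 2 in atf6-/-;sec31anju221 was -1.51 with TMM. It was -0.072 with TMM factors from the genes averaging 10 CPM or more and -0.058 with library totals alone. That of family 1 in srebf1-/-;sec31anju221 was 0.12 with the hepatocyte list. That of family 4 in the libraries labelled atf4a/b double mutants was 0.12 with TMM. With TMM scaling, in xbp1-/-;sec31anju221, atf6-/-;sec31anju221 and the libraries labelled atf4a/b double mutants, family 2 averaged 350.3, 488 and 646 CPM, against 1392 CPM in sec31anju221. In srebf1-/-;sec31anju221 and srebf2-/-;sec31anju221 it averaged 1845 and 1731 CPM. Family 4 averaged 294, 409 and 695 CPM in xbp1-/-;sec31anju221, atf6-/-;sec31anju221 and the libraries labelled atf4a/b double mutants, and 997 and 2157 CPM in srebf1-/-;sec31anju221 and srebf2-/-;sec31anju221, against 641 CPM in sec31anju221. The srebf2-/-;sec31anju221 livers, at 3.37 times the sec31anju221 level, came nearest to the WT mean of 2477 CPM. Family 1 averaged 139, 268, 244, 546 and 614 CPM in the 5 double mutants in the same order, against 299 CPM in sec31anju221. Family 3 had the narrowest range, with 137, 141, 172, 188 and 341 CPM in the double mutants, against 183 CPM in sec31anju221. Using TMM factors taken from the genes averaging 10 CPM or more, the log2 difference between xbp1-/-;sec31anju221 and sec31anju221 was 0.10 for family 1 and 0.08 for family 4, in place of -1.10 and -1.12, and that between the libraries labelled atf4a/b double mutants and sec31anju221 was 0.11 for family 2, in place of -1.11. Scaled to the hepatocyte list, the log2 difference of family 1 between srebf2-/-;sec31anju221 and sec31anju221 was -0.33, in place of 1.04.

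The shares that members took of the P450 counts do not depend on the scaling, but between genes they also depend on gene length, which was not used. Of the counts on all members, the gene cyp2ad2 took 12.6% (12.4 to 12.8%) in sec31anju221 and 30.6% (30.4 to 30.8%) in WT (95% Wilson intervals, which cover counting error only). It held the most counts in WT, whereas cyp4v2 ENSDARG00000062132, with 16.5% in sec31anju221 and 24.2% in WT, held the most in sec31anju221. The gene cyp2ad2 took 5.23% in xbp1-/-;sec31anju221, 7.23% in atf6-/-;sec31anju221, 15.4% in the libraries labelled atf4a/b double mutants, 16.8% in srebf1-/-;sec31anju221 and 13.4% in srebf2-/-;sec31anju221, so no mutant genotype came above 16.8%. Family 3 took 14.9%, 10.8%, 9.8%, 5.25% and 7.05% of the member counts in the double mutants, 7.29% in sec31anju221 and 3.58% in WT. Family 4 took 44.5% in srebf2-/-;sec31anju221, its largest share, against 25.5% in sec31anju221 and 30.9% in WT. Family 1 took 20.5% in atf6-/-;sec31anju221, its largest share, against 11.9% in sec31anju221 and 11.5% in WT.

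**Figure D2:**
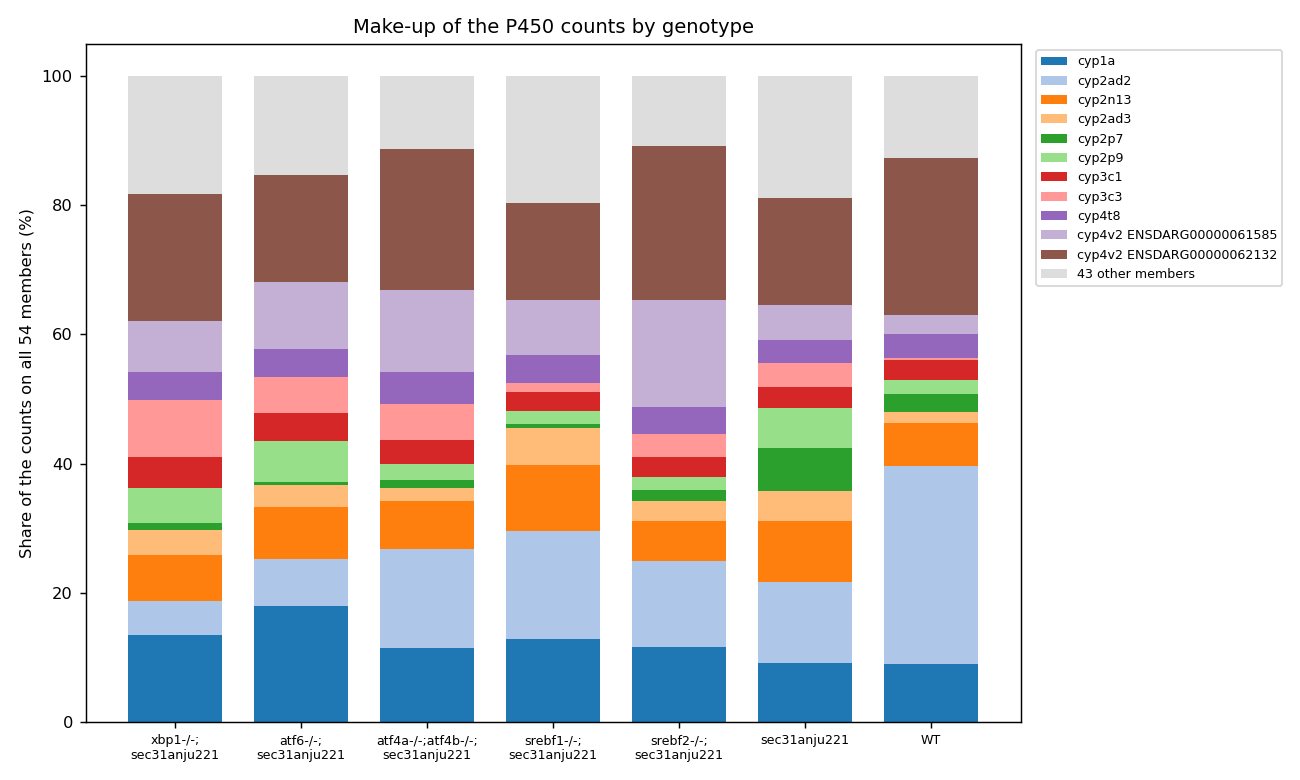
Share of the counts on all 54 members (%), by genotype, for 11 members and for the other members together. The share of cyp2ad2 was 12.6% in sec31anju221 and 30.6% in WT, and that of cyp3c3 was 3.73% in sec31anju221 and 0.243% in WT.

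Between sec31anju221 and WT, 2 members were called higher and 24 lower, while over all 30747 genes tested 7.45% were called higher and 7.79% lower. The members called lower were 44.4% of the 54. The median log2 fold change was -0.84 over the 54 members and 0.15 over all genes tested. The counts depended on the scaling: with library totals alone 7 members were called higher and 12 lower, where 20.7% of all genes were higher and 3.19% lower. On the hepatocyte list 14 were called higher and 5 lower, where 35.5% of all genes were higher and 1.82% lower. The median of all genes was shifted by 0.45 and 0.79 on the log2 scale. The hepatocyte list itself had 26 of 44 genes called lower and a median log2 fold change of -1.16. Across all 5 scalings tried, 2 members stayed higher (cyp2aa7 and cyp3c3) and 5 stayed lower (cyp2ad2, cyp2k19, cyp2k21, cyp2x9 and cyp4v2 ENSDARG00000062132). Here and in the other comparisons, the share of all genes called in every scaling was not counted. These counts of members therefore have no background beside them. Leaving out 1 library left 24 of the 26 calls in place in every case, the exceptions being cyp2ae1 and cyp2x10.2, both called lower. The count of members called higher was 3 without WT replicate 3, without sec31anju221 replicate 1 or without sec31anju221 replicate 2.

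Among the 5 members that stayed lower, cyp2ad2, a fish gene of the CYP2J-like group, was at 327, 312 and 310.2 CPM in sec31anju221, against 2446, 2453 and 2444 CPM in WT, a log2 fold change of -2.95. The sec31anju221 libraries had 7.74 times less than WT, with no overlap between the libraries. The gene cyp4v2 ENSDARG00000062132, a counterpart of the human fatty acid omega-hydroxylase CYP4V2, was at 422, 411 and 409.9 CPM in sec31anju221, against 1957, 1949 and 1914 CPM in WT, a log2 fold change of -2.23. The gene cyp2k19, of a fish subfamily in a tandem cluster, was at 10.7, 9.57 and 9.97 CPM in sec31anju221, against 75.8, 78.7 and 68 CPM in WT, a log2 fold change of -2.86. The gene cyp2x9, of the fish CYP2X group, was at 3, 3.19 and 3.96 CPM in sec31anju221, against 16.2, 18.4 and 16 CPM in WT, a log2 fold change of -2.28. All 4 were below every WT library in each sec31anju221 library. The remaining one, cyp2k21, had only 15 counts in sec31anju221 and 93 in WT.

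**Figure D3:**
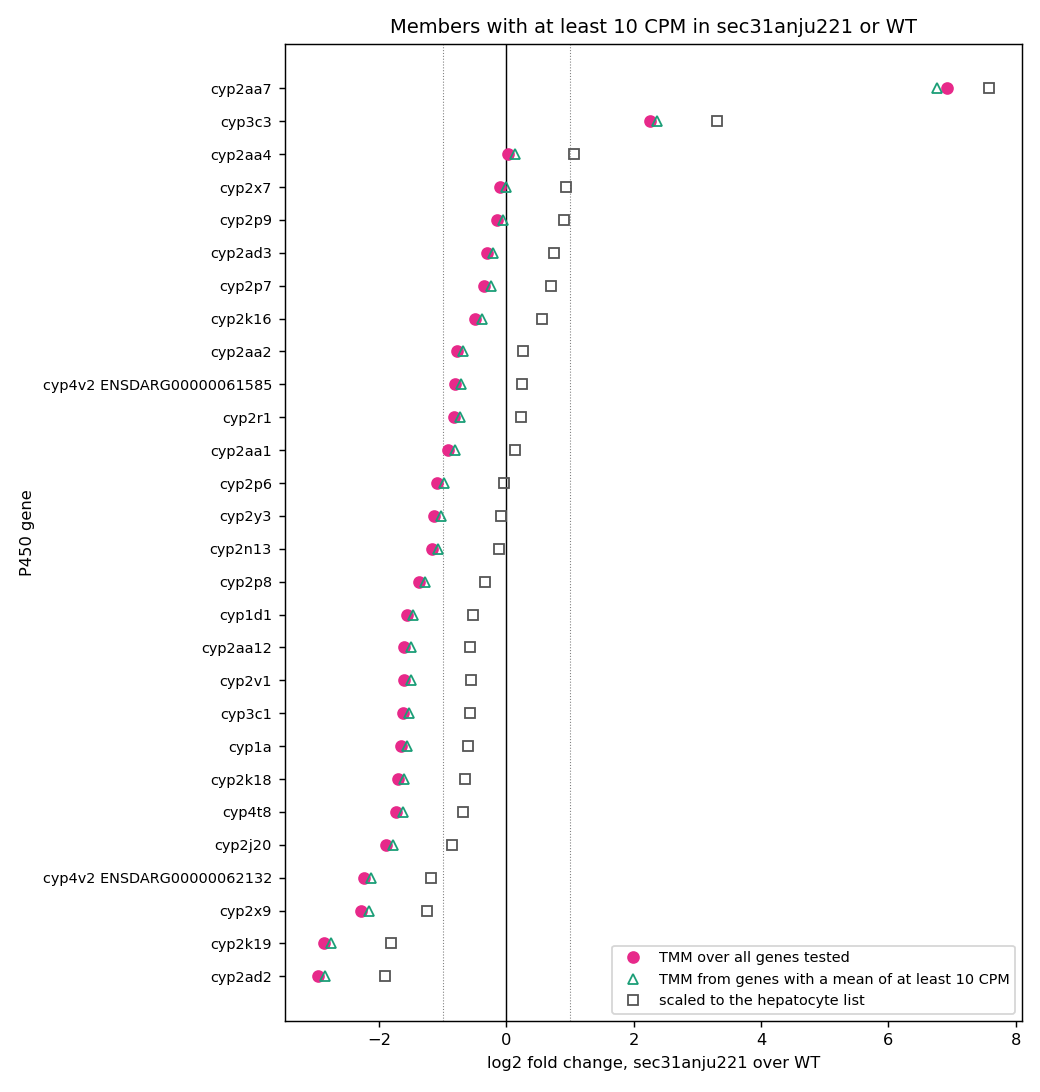
Log2 fold change of sec31anju221 over WT for the members with a mean of at least 10 CPM in either genotype, under 3 scalings. Dotted lines mark a fold change of 2. The gene cyp2aa7 lies at 6.91 and cyp3c3 at 2.26 with TMM over all genes, cyp2ad2 at -2.95, and scaling to the hepatocyte list moves all points to the right.

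With TMM, members of all 4 families were called lower between sec31anju221 and WT, but only members of families 2 and 4 stayed lower in all 5 scalings. In family 1, cyp1a, which the aryl hydrocarbon receptor switches on, and cyp1d1 were called lower, with cyp1a at 224, 229 and 229 CPM in sec31anju221, against 724, 727 and 700.1 CPM in WT. The gene cyp1d1 was at 68.9, 65.9 and 66.7 CPM in sec31anju221, against 192, 205 and 201 CPM in WT. The other 3 members, cyp1b1, cyp1c1 and cyp1c2, stayed under 10 CPM in every genotype and were not called. In family 2, 18 of 40 members were called lower and 1 higher. Of the tandem cluster with cyp2ad, cyp2j, cyp2n, cyp2p and cyp2v genes, 7 of 11 were called lower, with a median log2 fold change of -1.17. Of the cyp2k cluster, 4 of 8 were called lower. Within the first cluster 2 further genes differed less than cyp2ad2: cyp2n13 was at 240.3, 242 and 233 CPM in sec31anju221, against 544, 534 and 535 CPM in WT, and cyp2ad3 was at 111, 118 and 116 CPM in sec31anju221, against 150.4, 142 and 134 CPM in WT, which was not called. In family 3, cyp3c1 and cyp3a65 were called lower and cyp3c3 higher, and in family 4 cyp4t8 and cyp4v2 ENSDARG00000062132 were called lower. The gene cyp4t8 was at 91.8, 90.9 and 86.6 CPM in sec31anju221, against 292, 298 and 303 CPM in WT. The other cyp4v2 gene, ENSDARG00000061585, was at 141, 133 and 136 CPM in sec31anju221, against 249, 236 and 234 CPM in WT, and was not called.

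The gene cyp2aa7, of a fish subfamily in tandem on one chromosome, had the largest difference of any member between sec31anju221 and WT. It was at 40.2, 38 and 41.7 CPM in sec31anju221, against 0, 0.0896 and 0.535 CPM in WT, where the 3 libraries held 7 counts in all. The ratio of the means was 192 (92.8 to 477) (95% interval of counting error). In srebf1-/-;sec31anju221 it was as high, at 48.7, 47.7 and 53.7 CPM, whereas in srebf2-/-;sec31anju221 it was at 1.59, 2.16 and 1.41 CPM. It was at 2.89, 3.41 and 3.42 CPM in xbp1-/-;sec31anju221, at 0.699, 0.698 and 1.05 CPM in atf6-/-;sec31anju221 and at 0.929, 0.711 and 0.493 CPM in the libraries labelled atf4a/b double mutants. High levels were thus seen in sec31anju221 and srebf1-/-;sec31anju221 alone, and no library of the other 5 genotypes was above 3.42 CPM. Its calls against sec31anju221 were lower in xbp1-/-;sec31anju221, atf6-/-;sec31anju221, the libraries labelled atf4a/b double mutants and srebf2-/-;sec31anju221 under all 5 scalings. Between sec31anju221 and WT, it was the only one of the 10 genes of its cluster called higher with TMM. Nearby, cyp2aa12 was at 3.53 CPM in sec31anju221 and 11 CPM in WT, and cyp2aa4 was at 11.5 CPM in sec31anju221 and 11.2 CPM in WT. In srebf2-/-;sec31anju221 the lower level was shared: cyp2aa1, cyp2aa3, cyp2aa4 and cyp2aa9 were also called lower than in sec31anju221 under all 5 scalings. So was cyp2aa1 in the libraries labelled atf4a/b double mutants. Intestine marker sums were also highest in sec31anju221 and srebf1-/-;sec31anju221, nearly all of it from fabp2, at 3265 CPM in sec31anju221 and 2915 CPM in srebf1-/-;sec31anju221, against 1665 CPM in WT. Of the 14 intestine markers, 2 were called higher and 0 lower between sec31anju221 and WT with TMM. Over all genes, 7.45% were higher and 7.79% lower. The markers vil1 and cdx1b averaged 2.68 and 1.66 CPM in sec31anju221, against 2.95 and 1.37 CPM in WT. The markers agr2 and mep1a.1 averaged 16.3 and 5.32 CPM in sec31anju221, against 5.60 and 2.53 CPM in WT. In srebf1-/-;sec31anju221 these 2 were at 5.51 and 2.17 CPM. The part of intestine tissue in the cyp2aa7 levels was not tested.

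The fish gene cyp3c3 was the other member called higher than WT. It was at 92.7, 99.8 and 88.9 CPM in sec31anju221, against 20.2, 18.7 and 19.3 CPM in WT, a ratio of 4.83 (4.45 to 5.25). Of the family 3 counts it made up 51.2% in sec31anju221 and 6.78% in WT. Its mean was 81.2 CPM in xbp1-/-;sec31anju221, 72 CPM in atf6-/-;sec31anju221, 99.3 CPM in the libraries labelled atf4a/b double mutants, 51.5 CPM in srebf1-/-;sec31anju221 and 173 CPM in srebf2-/-;sec31anju221. All mutant libraries were above all WT libraries. The adjacent cyp3c1 had the opposite order between sec31anju221 and WT, at 82.8, 78.2 and 87.6 CPM in sec31anju221, against 256, 261 and 248 CPM in WT. The 4 cyp3c genes are close relatives in tandem, and reads shared between them could have been split or dropped in counting.

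**Figure D4:**
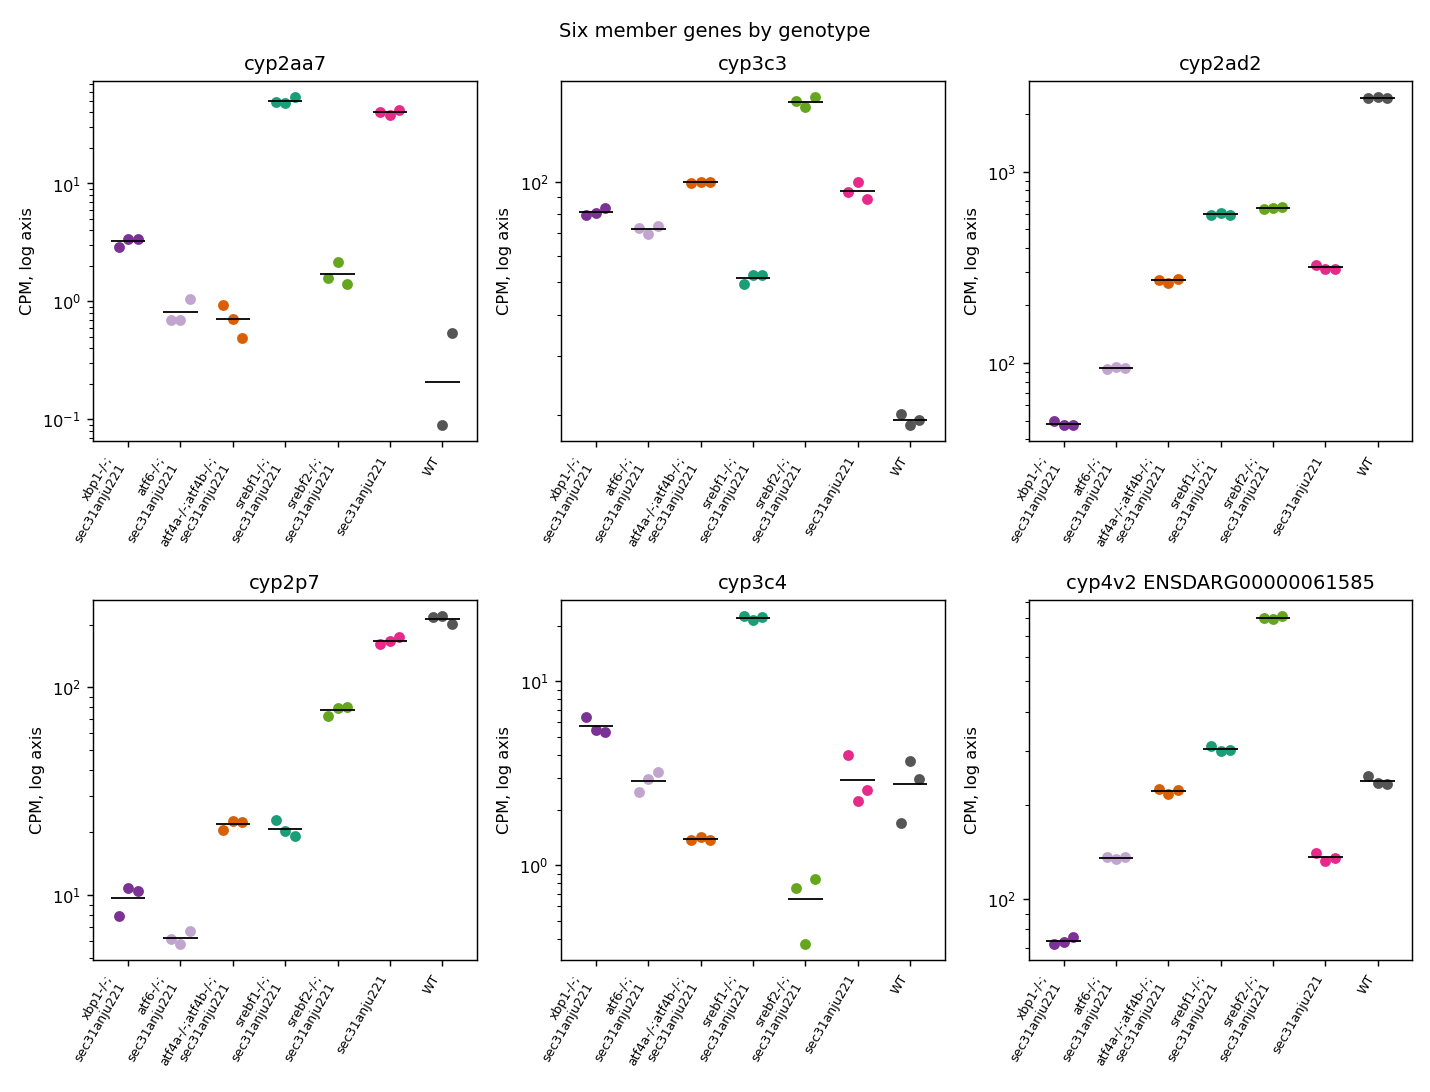
Levels of 6 members (log axis, TMM-scaled CPM) in the 21 libraries, by genotype. Points are the 3 libraries of a genotype, counted as 1 sample, and the line is their mean. One WT library had 0 CPM of cyp2aa7 and is not drawn. The gene cyp2aa7 is high in srebf1-/-;sec31anju221 and sec31anju221, cyp3c3 is lowest in WT, and cyp3c4 is highest in srebf1-/-;sec31anju221.

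Between xbp1-/-;sec31anju221 and sec31anju221, 1 member was called higher and 18 lower, while over all genes tested 3.32% were called higher and 15.7% lower. With TMM factors taken from the genes averaging 10 CPM or more, 15 were called higher and 8 lower, with the median of all genes shifted by 0.96 on the log2 scale and 42.5% of all genes called higher and 3.43% lower. With library totals alone 19 were called higher and 6 lower, where 49.9% of all genes were higher and 2.32% lower, and scaled to the hepatocyte list 16 were higher and 8 lower, where 42.7% of all genes were higher and 3.41% lower. In every scaling, 6 members were lower (cyp1d1, cyp2aa7, cyp2ad2, cyp2k18, cyp2p7 and cyp2r1) and 1 was higher (cyp2ae1). The share of all genes that held in every scaling was not counted. The call of cyp2ae1 was lost without sec31anju221 replicate 1, sec31anju221 replicate 2, xbp1-/-;sec31anju221 replicate 1 or xbp1-/-;sec31anju221 replicate 2, and the count of members called higher ran between 0 and 2 over the libraries left out. The gene cyp1d1 was at 11.7, 11.8 and 11.7 CPM in xbp1-/-;sec31anju221, against 68.9, 65.9 and 66.7 CPM in sec31anju221. The gene cyp2ad2 was at 49.7, 47.6 and 47.4 CPM in xbp1-/-;sec31anju221, against 327, 312 and 310.2 CPM in sec31anju221. The hepatocyte list had 27 of 44 genes called lower in this comparison and a median log2 fold change of -1.19, against -0.67 over the members.

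The gene cyp2p7, of a fish subfamily in tandem with cyp2p6, cyp2p8, cyp2p9 and cyp2p10, was lower in 5 of 5 double mutants. It was at 7.96, 10.8 and 10.4 CPM in xbp1-/-;sec31anju221, at 6.14, 5.83 and 6.69 CPM in atf6-/-;sec31anju221 and at 20.5, 22.6 and 22.5 CPM in the libraries labelled atf4a/b double mutants, against 161, 167 and 174 CPM in sec31anju221. In srebf1-/-;sec31anju221 and srebf2-/-;sec31anju221 it was at 22.8, 20.4 and 19.2 and 72.5, 79.4 and 80.01 CPM. Every double mutant library was below every sec31anju221 library, and in WT it was at 217, 219 and 201 CPM. Its calls held in all 5 scalings in 4 of the 5 double mutants. Of all member counts it took 1.05%, 0.476%, 1.25%, 0.581% and 1.6% in the double mutants, 6.65% in sec31anju221 and 2.65% in WT. The neighbouring cyp2p9 was at 49.2, 83.2, 42.5, 69.7 and 98.7 CPM in the double mutants, against 157 CPM in sec31anju221, and was called lower in xbp1-/-;sec31anju221, the libraries labelled atf4a/b double mutants and srebf1-/-;sec31anju221. Since the 5 comparisons share the sec31anju221 libraries, one low or high sec31anju221 value would enter all of them.

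Between atf6-/-;sec31anju221 and sec31anju221, 2 members were called higher and 16 lower, while over all genes tested 5.95% were called higher and 18.1% lower. With TMM factors taken from the genes averaging 10 CPM or more, 28 members were called higher and 5 lower, with the median of all genes shifted by 1.16. The 28 were 51.9% of the members, where 49.6% of all genes were called higher and 5% lower. In all 5 scalings, 5 were lower (cyp2aa7, cyp2k18, cyp2p7, cyp2r1 and cyp2x7) and 2 higher (cyp2k21 and cyp3a65). Between the libraries labelled atf4a/b double mutants and sec31anju221, 3 members were called higher and 15 lower, while over all genes tested 5.9% were called higher and 16.6% lower. With TMM factors taken from the genes averaging 10 CPM or more, 22 were called higher and 7 lower, with the median of all genes shifted by 0.98 and 43.3% of all genes called higher and 6.28% lower. In all 5 scalings, 7 were lower (cyp2aa1, cyp2aa7, cyp2k18, cyp2p7, cyp2p8, cyp2r1 and cyp2x7) and 3 higher (cyp2u1, cyp2x10.2 and cyp3c2). The count of members called higher there was 1 without sec31anju221 replicate 2, without sec31anju221 replicate 3 or without atf4a-/-;atf4b-/-;sec31anju221 replicate 1, and 2 without its replicate 2 or its replicate 3. The call of cyp3c2 was lost in 6 of 6 cases of leaving out 1 library, and that of cyp2x10.2 in 3 of 6.

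The members low in all 3 of these genotypes whatever the scaling were cyp2aa7, cyp2k18, cyp2p7 and cyp2r1. The gene cyp2k18 was at 5.42, 5.1 and 4.48 CPM in xbp1-/-;sec31anju221, at 5.49, 6.33 and 4.94 CPM in atf6-/-;sec31anju221 and at 6.72, 7.17 and 7.67 CPM in the libraries labelled atf4a/b double mutants, against 52.4, 54.3 and 54.1 CPM in sec31anju221. The gene cyp2r1, whose mammalian counterpart is a vitamin D 25-hydroxylase, was at 3.87, 5.1 and 4.13 CPM in xbp1-/-;sec31anju221, at 4.59, 5.43 and 5.44 CPM in atf6-/-;sec31anju221 and at 6.23, 4.76 and 6.41 CPM in the libraries labelled atf4a/b double mutants, against 34.2, 29.7 and 38.1 CPM in sec31anju221. The sec31anju221 libraries did not overlap those of the other genotypes in either gene. The gene cyp2x7 was at 3.99, 3.34 and 3.89 CPM in atf6-/-;sec31anju221 and 2.13, 2.52 and 2.36 CPM in the libraries labelled atf4a/b double mutants, against 24.8, 22.3 and 20.7 CPM in sec31anju221, while xbp1-/-;sec31anju221 had 9.25, 9.53 and 10.7 CPM. The gene cyp2aa1 was at 6.39, 5.96 and 6.14 CPM in the libraries labelled atf4a/b double mutants, against 32.5, 35 and 32.8 CPM in sec31anju221. The 6 calls of higher members in these genotypes were all of genes below 10 CPM: cyp3a65, the zebrafish CYP3A member, was at 8.14, 7.68 and 6.09 CPM in atf6-/-;sec31anju221, against 3, 1.72 and 2.81 CPM in sec31anju221. In xbp1-/-;sec31anju221, atf6-/-;sec31anju221 and the libraries labelled atf4a/b double mutants, 21836 to 23551 genes reached 1 CPM before scaling, against 11734 to 15397 in the other genotypes. The libraries of these 3 genotypes also held fewer counts, 9608400 to 11666806, against 18918025 to 23095746 in the others. Their TMM factors were 1.56 to 2.09, against 0.484 to 0.762. These differences cannot be told apart from genotype in any level or call of the 3 against sec31anju221. Only depth was varied, by thinning all libraries to the smallest total, and the part of the other differences was not tested.

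Between srebf1-/-;sec31anju221 and sec31anju221, 12 members were called higher and 9 lower, while over all genes tested 7.86% were called higher and 8.8% lower. Scaled to the hepatocyte list, 5 were called higher and 18 lower, with the median of all genes shifted by -0.57 and 2.63% of all genes called higher and 26.5% lower. In all 5 scalings, 5 were higher (cyp2k19, cyp2k21, cyp2x10.1, cyp2x10.2 and cyp3c4) and 8 lower (cyp1c1, cyp2aa3, cyp2aa4, cyp2k31, cyp2p7, cyp2p9, cyp2x6 and cyp2x8). The count of members called lower was 6 without srebf1-/-;sec31anju221 replicate 2. The call of cyp1c1 was lost without sec31anju221 replicate 3 or srebf1-/-;sec31anju221 replicate 2, and that of cyp2k31 without srebf1-/-;sec31anju221 replicate 2 or 3. The gene cyp3c4 was at 22.6, 21.4 and 22.2 CPM in srebf1-/-;sec31anju221, against 3.96, 2.23 and 2.56 CPM in sec31anju221, a ratio of 7.57 (6.32 to 9.12). Its level in srebf2-/-;sec31anju221 was 0.75, 0.376 and 0.846 CPM, so srebf1-/-;sec31anju221 and srebf2-/-;sec31anju221 lay on either side of sec31anju221. The gene cyp2k19 was at 38.4, 39.7 and 37.3 CPM in srebf1-/-;sec31anju221, against 10.7, 9.57 and 9.97 CPM in sec31anju221. The gene cyp2ad6 was at 10.1, 11.6 and 13.7 CPM in srebf1-/-;sec31anju221, against 3.96, 4.28 and 3.13 CPM in sec31anju221, and was not called in every scaling. Among those lower, cyp2aa4 was at 1.38, 2.54 and 2.74 CPM in srebf1-/-;sec31anju221, against 11.9, 10.6 and 12 CPM in sec31anju221, and cyp2p9 was at 75, 67.9 and 66.2 CPM in srebf1-/-;sec31anju221, against 168, 147 and 157 CPM in sec31anju221.

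Between srebf2-/-;sec31anju221 and sec31anju221, 12 members were called higher and 9 lower, while over all genes tested 9.54% were called higher and 14.4% lower. Scaled to the hepatocyte list, 2 were called higher and 29 lower, with the median of all genes shifted by -0.94 and 1.68% of all genes called higher and 50.5% lower. With library totals alone 8 were called higher and 13 lower, where 5.66% of all genes were higher and 24.3% lower. With RLE size factors, 15 were called higher and 6 lower, where 11.4% of all genes were higher and 11.3% lower. With TMM factors taken from the genes averaging 10 CPM or more 9 were higher and 11 lower, where 7.64% of all genes were higher and 18.1% lower. In all 5 scalings, 2 were higher (cyp2x10.1 and cyp4v2 ENSDARG00000061585) and 6 lower (cyp2aa1, cyp2aa3, cyp2aa4, cyp2aa7, cyp2aa9 and cyp3c4). Those 6 included 5 of the 10 genes of the cyp2aa and cyp2ae cluster, in which 6 were called lower and 1 higher with TMM scaling, with a median log2 fold change of -1.20.

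The gene cyp4v2 ENSDARG00000061585 was at 799.7, 795 and 810.4 CPM in srebf2-/-;sec31anju221, against 141, 133 and 136 CPM in sec31anju221, a ratio of 5.87 (5.71 to 6.04). In WT it was at 249, 236 and 234 CPM, so srebf2-/-;sec31anju221 was above both. The other cyp4v2 gene, ENSDARG00000062132, was at 1145, 1168 and 1155 CPM in srebf2-/-;sec31anju221, against 422, 411 and 409.9 CPM in sec31anju221 and 1957, 1949 and 1914 CPM in WT, and stayed below WT. Of the family 4 counts, ENSDARG00000061585 made up 37.2% in srebf2-/-;sec31anju221, 21.3% in sec31anju221 and 9.67% in WT. The gene cyp2aa1 was at 10.9, 9.59 and 9.31 CPM in srebf2-/-;sec31anju221, against 32.5, 35 and 32.8 CPM in sec31anju221, and cyp2aa4 was at 1.22, 2.26 and 1.6 CPM in srebf2-/-;sec31anju221, against 11.9, 10.6 and 12 CPM in sec31anju221. In srebf1-/-;sec31anju221, cyp2aa1 was at 61.4, 60.1 and 62.4 CPM, above sec31anju221, while cyp2aa4 was at 1.38, 2.54 and 2.74 CPM, below it. In family 1, cyp1a was at 464, 445 and 462 CPM in srebf1-/-;sec31anju221 and 565, 560.3 and 546 CPM in srebf2-/-;sec31anju221, against 224, 229 and 229 CPM in sec31anju221, and neither call held in all 5 scalings.

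**Figure D5:**
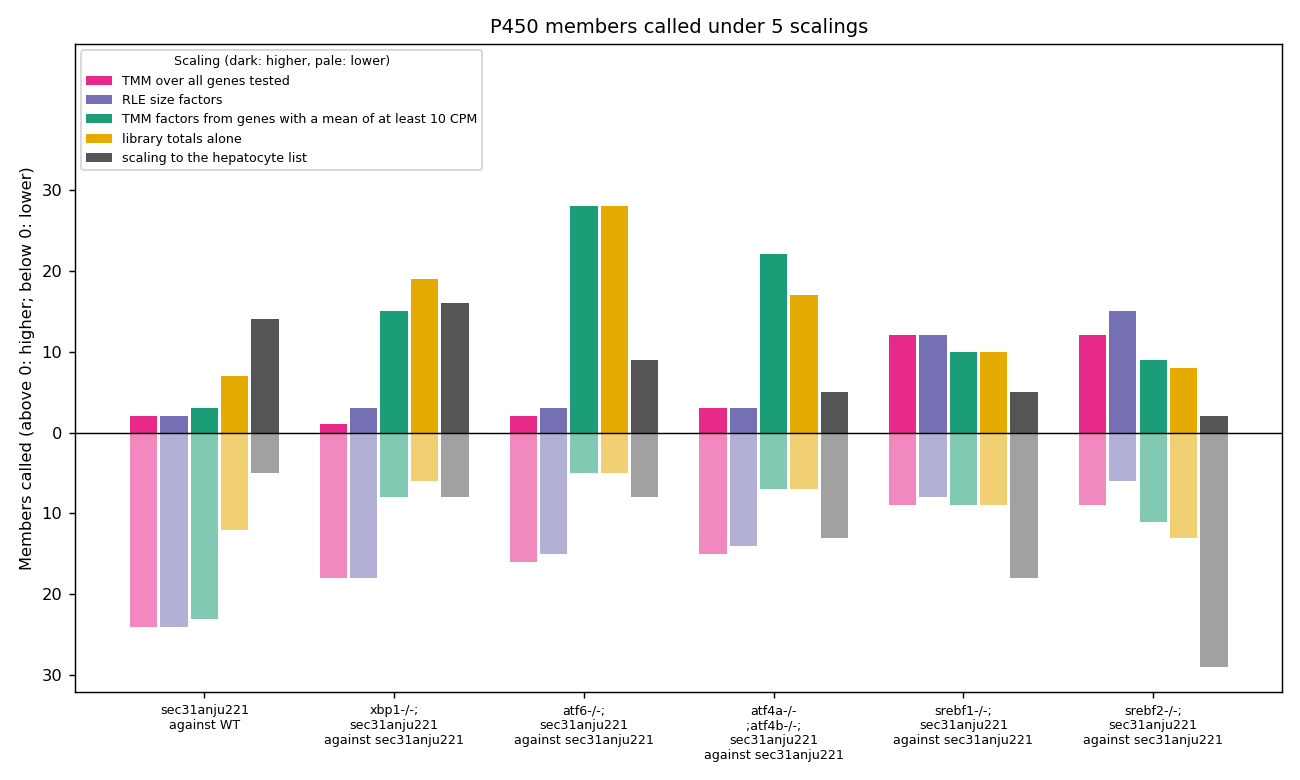
Number of members called higher (above 0) and lower (below 0) in each of the 6 comparisons, under 5 scalings. In atf6-/-;sec31anju221 the counts were 2 higher and 16 lower with TMM over all genes. They were 28 higher and 5 lower with TMM factors taken from the genes averaging 10 CPM or more. Of all genes, 5.95% were higher and 18.1% lower with the first, and 49.6% and 5% with the second.

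Over the 54 members, 31 reached a mean of 10 CPM in at least 1 genotype and 13 did so in every genotype. The other 23 stayed below it everywhere, with a highest mean of 8.11 CPM. By genotype, 14 members reached 10 CPM in xbp1-/-;sec31anju221, 16 in atf6-/-;sec31anju221, 15 in the libraries labelled atf4a/b double mutants, 26 in srebf1-/-;sec31anju221, 23 in srebf2-/-;sec31anju221, 24 in sec31anju221 and 27 in WT. In family 1 cyp1b1 averaged 2.48, 2.28, 2.39, 0.778 and 0.345 CPM in the double mutants, 1.23 CPM in sec31anju221 and 1.22 CPM in WT. The gene cyp1c1 averaged 0.902, 1.28, 3.1, 0.937 and 5.23 CPM in the double mutants, 2.51 CPM in sec31anju221 and 1.07 CPM in WT, and cyp1c2 was below 2 CPM in every genotype. The cyp1b1 values rest on 11 to 168 counts per genotype, a depth at which small differences were not detectable. The member with the fewest counts in sec31anju221 and WT together was cyp4f3, named here after its values were seen, with 7 counts in sec31anju221 and 0 in WT, which allows up to 0.0894 CPM over the 3 libraries.

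Genes that work with the P450 enzymes were counted alongside. With TMM scaling, electron donors had 2 of 8 genes called lower between sec31anju221 and WT, where 7.79% of all genes were. They had 5, 5 and 4 of 8 called lower in xbp1-/-;sec31anju221, atf6-/-;sec31anju221 and the libraries labelled atf4a/b double mutants than in sec31anju221, where 15.7%, 18.1% and 16.6% of all genes were. With library totals alone these counts were 1 of 8 in sec31anju221 against WT, and 0, 1 and 0 of 8 in the 3 double mutants. Over all genes 3.19% were called lower there in sec31anju221 against WT, and 2.32%, 4.92% and 7.28% in these double mutants. Called higher with library totals alone were 2 of 8 in sec31anju221 against WT, and 3, 2 and 1 of 8 in these double mutants. The shares of all genes called higher were 20.7% in sec31anju221 against WT, and 49.9%, 49.9% and 38.1% in these double mutants. For cytochrome P450 oxidoreductase, the main donor, the gene por ENSDARG00000059035 averaged 80.2 CPM in xbp1-/-;sec31anju221, 42.0 CPM in atf6-/-;sec31anju221, 89.7 CPM in the libraries labelled atf4a/b double mutants, 113.7 CPM in srebf1-/-;sec31anju221 and 99.98 CPM in srebf2-/-;sec31anju221, against 182 CPM in sec31anju221, and the WT mean was 126 CPM. Its log2 difference from sec31anju221 was -1.18 in xbp1-/-;sec31anju221 and -1.02 in the libraries labelled atf4a/b double mutants with TMM, but 0.27 and 0.023 with library totals alone. With the hepatocyte list it was 0.023 and -0.82, neither called. In atf6-/-;sec31anju221 it was called lower at -2.11 with TMM, -2.02 with RLE and -1.34 with the hepatocyte list. It was not called there at -0.66 with library totals. In srebf2-/-;sec31anju221 it was -0.86 with TMM and not called, but called lower at -1.30 with library totals and -2.23 with the hepatocyte list. Between sec31anju221 and WT, this por gene was at 0.53 with TMM and not called. It was called higher at 1.18 with library totals and 1.58 with the hepatocyte list. The cytochrome b5 gene cyb5a averaged 618 CPM in sec31anju221, against 1922 CPM in WT, and was called lower with 3 of the 5 scalings. Between sec31anju221 and WT, 7.79% of all genes were called lower and 7.45% higher with TMM, and 1.82% and 35.5% with the hepatocyte list. Of 10 genes of heme synthesis and breakdown, 4 were called lower and 1 higher in this comparison with TMM. With the hepatocyte list 0 were lower and 5 higher. Of these, alas1, the first enzyme of heme synthesis, averaged 9.21 CPM in xbp1-/-;sec31anju221, 5.19 CPM in atf6-/-;sec31anju221, 21.9 CPM in the libraries labelled atf4a/b double mutants, 95.9 CPM in srebf1-/-;sec31anju221 and 52.6 CPM in srebf2-/-;sec31anju221, against 40.3 CPM in sec31anju221. It was called lower in atf6-/-;sec31anju221 under all 5 scalings, and in xbp1-/-;sec31anju221 with TMM and RLE only. The gene hmox1, which breaks heme down, averaged 34.6 CPM in xbp1-/-;sec31anju221, 193 CPM in atf6-/-;sec31anju221, 93.4 CPM in the libraries labelled atf4a/b double mutants, 31.9 CPM in srebf1-/-;sec31anju221 and 145.5 CPM in srebf2-/-;sec31anju221, against 18.1 CPM in sec31anju221, and the WT mean was 74.0 CPM. It was called higher in atf6-/-;sec31anju221, the libraries labelled atf4a/b double mutants and srebf2-/-;sec31anju221 under all 5 scalings.

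Receptors that act on P450 genes and their partners, not all of which switch these genes on, were also counted. With TMM, 1 of 18 was called higher and 3 lower between sec31anju221 and WT, where 7.45% of all genes were higher and 7.79% lower. With the hepatocyte list 6 were higher and 0 lower, where 35.5% of all genes were higher and 1.82% lower. The aryl hydrocarbon receptor gene ahr2 averaged 20.1 CPM in sec31anju221 and 24.2 CPM in WT and was not called. The nuclear receptor gene nr1i2 (PXR) averaged 5.43 CPM in sec31anju221 and 17.6 CPM in WT and was called lower, though not with the hepatocyte list. Of the conjugating enzymes, 13 of 29 UDP-glucuronosyltransferases tested were called lower and 2 higher with TMM, and 9 of 23 glutathione S-transferases were lower and 3 higher. Scaled to the hepatocyte list, 7 UDP-glucuronosyltransferases were lower and 5 higher, and 2 glutathione S-transferases were lower and 7 higher, where 1.82% of all genes were lower and 35.5% higher. With TMM the median log2 fold change was -0.84 for the first list and -0.37 for the second, against -0.84 for the P450 members and 0.15 for all genes tested. With the hepatocyte list these medians were 0.21, 0.55, 0.19 and 0.95. All 3 carboxylesterases were called lower with TMM and 1 of 3 with the hepatocyte list, with ces2a at 1688 CPM in sec31anju221 and 6822 CPM in WT. In xbp1-/-;sec31anju221, atf6-/-;sec31anju221 and the libraries labelled atf4a/b double mutants, 12, 14 and 13 of the 23 glutathione S-transferases were called lower than in sec31anju221 with TMM, and 3, 8 and 8 with library totals alone. Over all genes 15.7%, 18.1% and 16.6% were called lower with TMM, and 2.32%, 4.92% and 7.28% with library totals alone. Called higher with library totals alone were 8, 4 and 5 of the 23 glutathione S-transferases, where 49.9%, 49.9% and 38.1% of all genes were. In srebf1-/-;sec31anju221 and srebf2-/-;sec31anju221, 7 and 7 of the 29 UDP-glucuronosyltransferases were called higher than in sec31anju221 with TMM, and 3 and 3 lower. With the hepatocyte list 2 and 1 were higher, and 8 and 13 lower. Over all genes 7.86% and 9.54% were higher with TMM, and 8.8% and 14.4% lower. On the hepatocyte list 2.63% and 1.68% of all genes were higher, and 26.5% and 50.5% lower.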

How the data were processed

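Deposited values were whole-number counts per gene, which the authors made by mapping reads to GRCz11 with HISAT2 2.1.0 and counting with featureCounts 1.6.0 on an Ensembl annotation. The annotation release, strand setting and treatment of multi-mapping reads are not given in the sources used here, so tandem P450 genes with near-identical copies, and the 2 cyp4v2 genes, are uncertain. Symbols came from the name tables (29201 of 32520 identifiers), with RefSeq genes of GRCz12tu for neighbours. No sequence or gene length was used, so any order of levels between genes is one of counts and also depends on length.

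Counts of all 21 libraries were fitted with edgeR 4.0.16 in R 4.3.3 (TMM, quasi-likelihood test, genotype only, prior count 2). Fold changes and calls compare genotypes as single samples: 3 libraries each, at depths of 9608400 to 23095746 counts, with intervals and false discovery rates that cover counting noise only. Libraries of a genotype varied by up to 2.24 times the sampling variance, so these intervals understate even that spread. In data simulated for sec31anju221 against WT, 200 of 27768 genes were changed 4-fold and 85% of these were recovered. All other genes kept WT proportions, so this rate does not cover the dependence on scaling. Replicate numbers did not pair the libraries (correlations of -0.0857 to 0.0695).

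Named members were those of family 1, the 3 highest of each other family, and the 3 largest calls in each direction per comparison (mean of at least 10 CPM, no overlap). Members listed as holding in every scaling, and neighbours, were named after their values were seen. Members and lists were chosen with earlier results of these data known. Scalings of the related genes were added after seeing the data. Alternatives were 4 other scalings, DESeq2 1.42.0, filters, thresholds, depth, prior counts and libraries left out.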

Additional observations from a re-analysis of the deposited data

How the results depend on the processing

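The counts of members called depended on the scaling. With library totals alone, members called higher and lower numbered 7 and 12 between sec31anju221 and WT, 19 and 6 between xbp1-/-;sec31anju221 and sec31anju221, 28 and 5 between atf6-/-;sec31anju221 and sec31anju221, and 17 and 7 between the libraries labelled atf4a-/-;atf4b-/-;sec31anju221 and sec31anju221. Over all genes, library totals gave 20.7% higher and 3.19% lower, 49.9% and 2.32%, 49.9% and 4.92%, and 38.1% and 7.28% in that order. Scaled to the hepatocyte list, members called higher and lower numbered 14 and 5, 16 and 8, 9 and 8, and 5 and 13 in the same order. They numbered 5 and 18 between srebf1-/-;sec31anju221 and sec31anju221, and 2 and 29 between srebf2-/-;sec31anju221 and sec31anju221. Over all genes, the hepatocyte list gave 35.5% higher and 1.82% lower, 42.7% and 3.41%, 30% and 9.9%, and 9.98% and 14.3% in the same order. It gave 2.63% and 26.5% for srebf1-/-;sec31anju221, and 1.68% and 50.5% for srebf2-/-;sec31anju221. With TMM factors taken from the genes averaging 10 CPM or more, 15 members were higher and 8 lower in xbp1-/-;sec31anju221. They numbered 28 and 5 in atf6-/-;sec31anju221, and 22 and 7 in the libraries labelled atf4a-/-;atf4b-/-;sec31anju221. Over all genes, these factors gave 42.5% higher and 3.43% lower, 49.6% and 5%, and 43.3% and 6.28% in that order. Members called higher in xbp1-/-;sec31anju221 numbered 3 with RLE size factors, where 4.14% of all genes were higher. They numbered 2 with only the 6 libraries compared and 3 with all libraries thinned to the smallest total. For these last alternatives the shares of all genes are not given here.

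At a fold change above 4 in edgeR, 5 members were called lower between sec31anju221 and WT, while cyp2aa7 and cyp3c3 were called higher. Against sec31anju221, 0 were higher and 8 lower in xbp1-/-;sec31anju221, 1 and 7 in atf6-/-;sec31anju221, 0 and 7 in the libraries labelled atf4a-/-;atf4b-/-;sec31anju221, 4 and 3 in srebf1-/-;sec31anju221, and 4 and 2 in srebf2-/-;sec31anju221. Without a false discovery rate, 7 members were called higher between sec31anju221 and WT. With the 3 libraries of a genotype summed to 1 and an assumed coefficient of variation of 0.4, edgeR called 1 member higher and 0 lower between sec31anju221 and WT, 0 and 0 in xbp1-/-;sec31anju221, 0 and 2 in atf6-/-;sec31anju221, 0 and 1 in the libraries labelled atf4a-/-;atf4b-/-;sec31anju221, 0 and 0 in srebf1-/-;sec31anju221, and 0 and 1 in srebf2-/-;sec31anju221. Shares of all genes are not given beside the counts at these settings, so the counts have no background here. A spread between animals was not measured by these libraries.

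Changes of sign were listed only for genes called with TMM and for families that differed more than 2-fold, and they came under scaling. In xbp1-/-;sec31anju221 against sec31anju221, with library totals, the hepatocyte list and TMM factors from the genes averaging 10 CPM or more in that order, family 1 was at 0.35, 0.10 and 0.10, family 4 at 0.33, 0.084 and 0.078, cyp4v2 ENSDARG00000062132 at 0.26, 0.011 and 0.0045, and cyp4t8 at 0.28, 0.032 and 0.026. The gene cyp2x7 was at 0.25 with library totals and 0.0063 with the hepatocyte list. In atf6-/-;sec31anju221, with library totals and TMM factors from the genes averaging 10 CPM or more, cyp1d1 was at 0.25 and 0.24, cyp2n13 at 0.28 and 0.27, and cyp2ad3 at 0.070 and 0.055. In the libraries labelled atf4a-/-;atf4b-/-;sec31anju221, TMM factors from the genes averaging 10 CPM or more put family 2 at 0.11 and cyp3c4 at 0.14. In srebf2-/-;sec31anju221 the hepatocyte list put family 1 at -0.33, cyp1a at -0.071, cyp1c1 at -0.29, cyp2ad2 at -0.33 and cyp4t8 at -0.21. Among related genes, in an alternative added after seeing the data, por ENSDARG00000059035 in xbp1-/-;sec31anju221 was at 0.27, 0.023 and 0.016 with library totals, the hepatocyte list and TMM factors from the genes averaging 10 CPM or more, and ces2a at 0.39, 0.15 and 0.14. With library totals and those TMM factors, por was at 0.023 and 0.19 and ahr2 at 0.018 and 0.19 in the libraries labelled atf4a-/-;atf4b-/-;sec31anju221, and cyb5a at 0.13 and 0.11 in atf6-/-;sec31anju221. The cause was not tested. Of 1458 values of families, named members and related genes under all alternatives, 1145 kept their call or stayed within the spread. A further 39 changed sign among genes called with TMM and families that differed more than 2-fold, and the others lost, gained or moved. Smaller differences that changed sign are not among the 39. One is family 3 between sec31anju221 and WT, at -0.65 with TMM and 0.41 with the hepatocyte list.

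Leaving out 1 library at a time, members called higher ran from 2 to 3 and lower from 22 to 24 between sec31anju221 and WT, 0 to 2 and 18 to 19 in xbp1-/-;sec31anju221, 2 to 2 and 15 to 16 in atf6-/-;sec31anju221, 1 to 3 and 13 to 15 in the libraries labelled atf4a-/-;atf4b-/-;sec31anju221, 11 to 12 and 6 to 8 in srebf1-/-;sec31anju221, and 11 to 12 and 7 to 9 in srebf2-/-;sec31anju221. Of the 123 calls, 107 held with every library left out, and of the 52 that held in all 5 scalings, 47 did. Neither share was counted over all genes. Since the libraries of a genotype look like 1 sample, this says little of animals. With the replicate number as a block, members called higher and lower were 2 and 24 between sec31anju221 and WT, 1 and 18, 2 and 16, 2 and 15, 12 and 9, and 12 and 9 in the 5 double mutants. DESeq2 gave 2 and 24, 1 and 18, 3 and 15, 3 and 15, 12 and 7, and 15 and 6. Shares of all genes are not given for the libraries left out, the block or DESeq2, so these counts have no background here.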

Other observations

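Of 32 P450 genes outside families 1 to 4, 3 were called higher and 4 lower between sec31anju221 and WT with TMM. Over all genes 7.45% were higher and 7.79% lower. The median log2 fold change of the 32 was -0.021, against -0.84 over the members. Single genes among them had wide ranges. The gene cyp24a1, whose enzyme inactivates vitamin D, averaged 133 CPM in xbp1-/-;sec31anju221, 569 CPM in atf6-/-;sec31anju221, 1262 CPM in the libraries labelled atf4a-/-;atf4b-/-;sec31anju221, 71.7 CPM in srebf1-/-;sec31anju221 and 323 CPM in srebf2-/-;sec31anju221, against 12.3 CPM in sec31anju221 and 156 CPM in WT. With TMM it was called lower between sec31anju221 and WT and higher in each double mutant, and its other scalings are not given here. The gene cyp7a1, the rate-limiting enzyme of bile acid synthesis, averaged 57.5, 287, 387, 485 and 522 CPM in the double mutants in the same order. It averaged 583 CPM in sec31anju221, against 2105 CPM in WT. The gene cyp20a1, an enzyme with no known substrate, averaged 11.6, 8.70, 11.5, 96.6 and 58.2 CPM in the double mutants in that order. It averaged 116 CPM in sec31anju221, against 20.1 CPM in WT. All 3 were picked after their values were seen, and no difference between genotypes had a replicate check.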
